A study of Mus musculus with 10 samples.

Results

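Huwe1 was depleted in C2C12 myotubes that had already formed, and poly(A) RNA was sequenced 4 days after infection. The contrast sets 1 FPKM value per gene from knockdown myotubes against 1 value from control myotubes, and it covers the 11755 genes that reached at least 1 FPKM in either condition, of 23417 genes listed. FPKM values take account of a transcript's length and of the depth of its library, so levels of different genes can be set side by side. C2C12 is a mouse myoblast line that stops dividing, fuses and makes sarcomeres when serum is withdrawn. Lentiviruses carrying 1 of 2 shRNAs to Huwe1 were added on day 4 of differentiation, infected cells were selected with puromycin, and RNA was taken on day 8 from 2 knockdown libraries, 1 per shRNA, and from 1 control library. The sample labels describe a non-targeting RNA for the control, while the header of the deposited table calls it wild type. Both knockdown libraries are merged in 1 column, so that no difference described here has a replicate check and no test was run on any of them. The series holds 10 libraries in all, with further Huwe1 knockdowns at day 0 and day 6, for which the labels give other hairpins. The paper's methods name only the 2 hairpins of day 8, for myoblasts and myotubes alike.

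Huwe1 is a very large HECT-type ubiquitin ligase with many substrates, and the series concerns its action on TBP, the subunit of TFIID that binds the TATA box. Muscle differentiation proceeds in 2 layers: basic helix-loop-helix factors of the MyoD family and Mef2 proteins switch on the muscle genes, and those genes build sarcomeres, the calcium release machinery, the postsynaptic membrane and the fast energy supply of the fiber. Once myotubes have formed, the same factors keep these genes active. The day 8 experiment therefore asks what Huwe1 loss does to muscle gene expression after it has been established, and not whether it can be started.

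The targets of both hairpins were located in the GENCODE annotation of GRCm38 (mm10), to show where in Huwe1 they lie. Only full-length matches without mismatch were sought, so depletion of other transcripts through partial matches was not tested. In that search each target matched Huwe1 and no other annotated gene. Both are printed in lower case as the labels give them, 5′ to 3′.
first shRNA: gcactcttcataactcacttt
second shRNA: gcactgctcatcaaagatgtt
The first lies in the 3′ untranslated region, in exon 83 of the 83 exons of the longest coding transcript, at chrX:151934876-151934896 on the plus strand. It was found in 2 annotated Huwe1 transcripts. The second lies in the coding sequence, across the junction of exons 19 and 20, from position 151862387 in the one to position 151862654 in the other, and was found in 6 Huwe1 transcripts. Huwe1 itself, at chrX:151803282-151935417, had 55.4 FPKM in control against 33.0 FPKM in knockdown myotubes, a log2 ratio of -0.75 or a 1.68-fold lower level. The knockdown libraries thus retained more than 1 in 2 of the Huwe1 transcripts on average, and the pooled column does not show how much each hairpin contributed. For comparison, Huwe1 had 35.1 and 44.7 FPKM in the 2 control columns of day 6, which come from separately normalized tables.

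The depth of the libraries could be read from the smallest values. Among genes with a single annotated transcript of at least 1500 bases, 210 control values clustered at the worth of 1 fragment, which placed the control library at about 1.81e+07 fragments. The lowest knockdown values fell into 2 clusters of 63 and 61 genes, which, if the pooled value is the mean of both libraries, correspond to 1.81e+07 and 1.41e+07 fragments. At these depths 1 FPKM on a transcript of 2000 bases stands for about 36.2 fragments in the control and 36.3 and 28.2 fragments in the knockdown libraries.

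Of the 11755 genes, 1180 were at least 2-fold lower in the knockdown, or 10.0%, and 928 were at least 2-fold higher, or 7.89%. Decreases of 8-fold or more were seen for 203 genes and such increases for 117. The median log2 ratio over all expressed genes was 0.00, with quartiles of -0.41 and 0.40, so the bulk of the transcriptome was centred without any adjustment. Of the 973 genes that reached 100 FPKM in control or knockdown, 122 passed 2-fold downward and 70 upward. A measure of how far control values can lie apart comes from the 2 day 6 control columns, 1 in the day 6 table and 1 in the table for USP10. The labels list 1 day 6 control library, so whether both columns come from separate cultures is not known, and their difference can include that of the separate normalization. Between them 19.9% of 11459 genes differed at least 2-fold after centring, with a robust SD of 0.63 on the log2 scale. The same figures were 17.9% and 0.60 for the day 8 contrast, and 3.6% and 0.29 between knockdown and control at day 0. The total number of genes past 2-fold at day 8 is thus no larger than between those 2 controls, and the main gene lists are given with the difference of the same list between them.

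**Figure D1:**
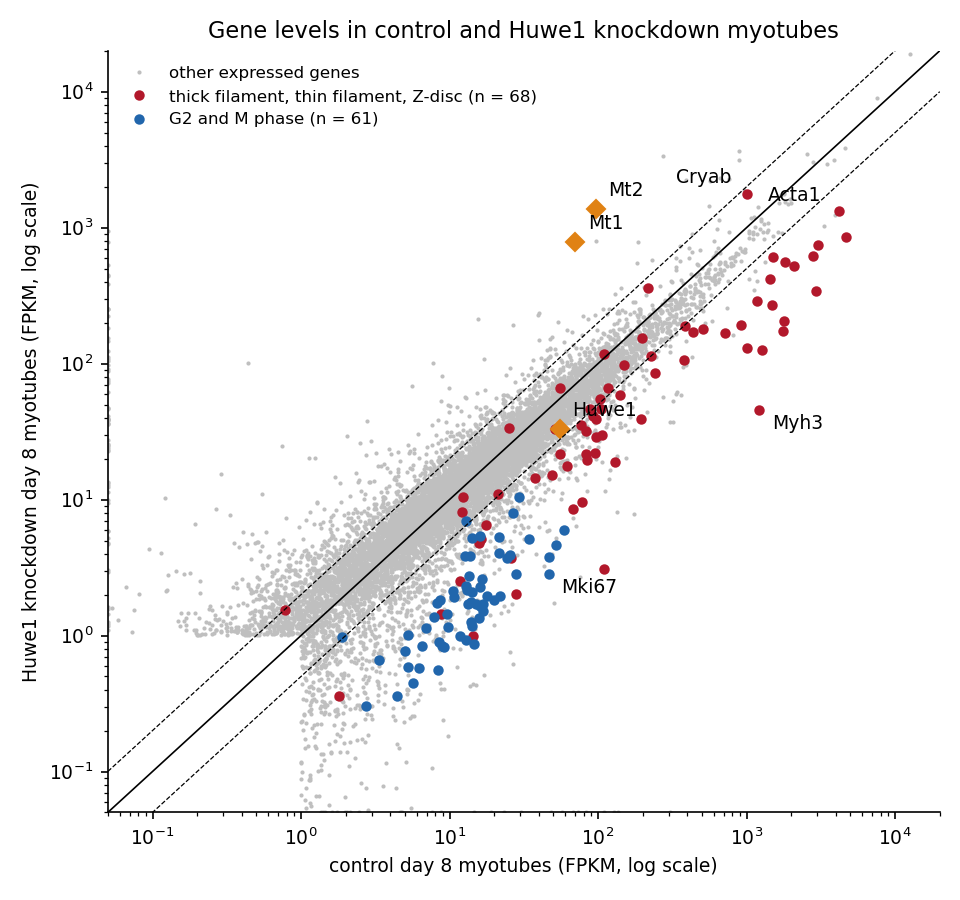
Level of each gene in control (horizontal) and Huwe1 knockdown (vertical) day 8 myotubes, in FPKM on log axes, for genes with at least 1 FPKM in either; values under 0.05 are drawn at the axis, and dashed lines mark 2-fold differences. Most genes of the thick filament, thin filament and Z-disc lists (red) and the G2 and M phase genes (blue) lie under the lower dashed line, Huwe1 lies between the lines, and Mt1 and Mt2 lie far above them.

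Both columns were those of differentiated muscle cultures. All 6 markers of the myotube state, Myh3 among them, were abundant in the control and lower in the knockdown. Mylpf, the fast regulatory myosin light chain, had 4641 FPKM in control against 861 FPKM in knockdown myotubes. Skeletal actin Acta1 had 4170 and 1325 FPKM, and Tnnt3, fast troponin T, had 2951 and 339 FPKM. Ckm, muscle creatine kinase, had 306 and 37.2 FPKM, and titin, Ttn, had 96.0 and 21.9 FPKM. Markers that myoblasts already carry moved less or not in 1 direction. Myod1 had 127 FPKM in control against 107 FPKM in knockdown cultures, Myf5 had 7.36 and 8.14 FPKM, and the cadherin Cdh15 had 165 and 231 FPKM. The intermediate filament gene Des fell from 1510 to 604 FPKM. In such bulk RNA, fewer myotubes and less muscle RNA per myotube cannot be told apart.

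Markers of other cell types were mostly low, apart from the osteoblast and chondrocyte list. Of its 10 genes 5 reached 1 FPKM, and all 10 summed to 998 FPKM in control against 688 FPKM in knockdown. Most of that sum was Spp1, osteopontin, at 958 and 661 FPKM, and the part of this list in other results was not tested. None of 10 endothelial markers reached 1 FPKM, and 2 of 13 macrophage and leukocyte markers did. The summed level of all 13 was 1.95 FPKM in the control against 4.46 FPKM in the knockdown. The defining leukocyte gene Ptprc had 0.0102 FPKM in the control and was listed at 0 in the knockdown, and 4 of 10 adipocyte markers, Adipoq and Plin1 among them, were listed at 0 in both. The 3 adipocyte markers that reached 1 FPKM were Lpl (3.11 and 9.32 FPKM), Cebpa (4.02 and 6.85 FPKM) and Pparg (3.77 and 2.83 FPKM), and the list summed to 11.0 FPKM in control against 19.6 FPKM in knockdown. Of 11 fibroblast and mesenchymal markers, 6 reached 1 FPKM, and all 11 summed to 96.8 FPKM in the control against 98.7 FPKM in the knockdown. Among them Pdgfra had 1.95 and 7.74 FPKM and Ly6a had 13.9 and 4.28 FPKM. Genes of satellite and reserve cells, the undifferentiated cells that remain beside myotubes, did not move together. The 22 listed genes had a summed level of 529 FPKM in control against 528 FPKM in knockdown cultures. The 18 expressed members had a median log2 ratio of -0.28. Pax7, the satellite cell factor, had 24.7 and 36.7 FPKM, and Vcam1, an adhesion molecule, had 47.8 and 130 FPKM, while Megf10 had 63.7 and 16.1 FPKM.

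The regulators of the muscle program split by gene. Of 24 expressed myogenic regulators, 9 were at least 2-fold lower, whereas 3 passed 2-fold upward, with a median log2 ratio of -0.33. Between the day 6 controls the same list had a median of -0.07. Among the basic helix-loop-helix factors, Myog, the factor of terminal differentiation, at chr1:134290004-134292548, had 392 FPKM in control against 148 FPKM in knockdown myotubes (log2 ratio -1.41). Myf6, the factor of mature fibers, was low at 1.41 and 0.135 FPKM, and the early factors Myod1 and Myf5 stayed within 2-fold. The 3 expressed Mef2 genes were lower to unequal degrees. Mef2c, at chr13:83504034-83667079, had 48.6 and 3.99 FPKM, a 12.1-fold lower level. Mef2a had 129 and 49.7 FPKM, Mef2d had 98.1 and 64.7 FPKM, and Mef2b was under 1 FPKM in both columns. Mef2c therefore fell much further than Mef2a, while Mef2d stayed within 2-fold. Between the 2 day 6 controls Mef2c had 97.7 and 49.95 FPKM.

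Several other factors of the list also fell. Tead4, a TEAD factor of muscle enhancers, had 31.8 FPKM in control against 7.44 FPKM in knockdown, Smyd1, a muscle lysine methyltransferase, had 43.5 and 9.85 FPKM, and Klf5 had 102 and 27.2 FPKM. Vgll2, a muscle partner of TEAD factors, had 4.82 FPKM in the control against 0.0458 FPKM in the knockdown. In contrast Tcf12, an E protein that pairs with MyoD, was at 62.4 and 64.7 FPKM. The Id genes, whose products bind E proteins and keep them from DNA, were higher in the 3 cases that were expressed. Id3 had 47.2 and 127 FPKM, Id1 had 26.2 and 52.5 FPKM, and Id2 had 14.5 and 22.02 FPKM.

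Sarcomere genes were lower as a group. The thick filament list had 19 of 22 expressed genes at least 2-fold lower and none higher, with a median log2 ratio of -1.88. The thin filament list had 17 of 20 at least 2-fold lower with a median of -1.82, and the Z-disc and titin list 17 of 26 with a median of -1.44. Between the day 6 controls the medians of the same lists were -1.30, -1.06 and -0.62, so these groups also differed there, by a smaller amount. At least 2-fold lower in the second of those controls were 15 of 22, 11 of 20 and 6 of 26 genes. Over the 71 genes of the 3 lists, the share of all summed FPKM was 7.99% in control and 2.54% in knockdown myotubes.

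Within the myosin heavy chains, which the fiber types and stages use in turn, the decrease was uneven. Embryonic Myh3, at chr11:67078300-67102291, had 1218 FPKM in control against 45.4 FPKM in knockdown, a 26.8-fold lower level, while it was at 616 and 676 FPKM in the 2 day 6 controls. Myh4, the fast IIb chain at chr11:67237812-67260447, had 110 and 3.10 FPKM (35.4-fold lower). Myh1, the IIx chain, was at 918 and 191 FPKM, although the day 6 controls themselves were far apart at 2029 and 235 FPKM, and perinatal Myh8 at 96.6 and 38.8 FPKM. Slow Myh7 stayed within 2-fold at 116 and 65.7 FPKM, and Myh2, the IIa chain, was at 25.3 and 33.3 FPKM. Thus Myh3, the most abundant heavy chain of the control, ranked under Myh1 and Myh7 in the knockdown. These genes are near copies of each other in 1 cluster on chromosome 11, apart from Myh7 and Myh7b, and how the fragments that fit several of them were shared is not given in the sources used here.

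The skeletal troponins, the calcium switch of the thin filament, were all over 4-fold lower. The fast skeletal subunits Tnnc2, Tnni2 and Tnnt3 had 1756, 1267 and 2951 FPKM in the control, against 173, 126 and 339 FPKM in the knockdown, with log2 ratios of -3.35, -3.33 and -3.12. The slow subunits Tnnc1 and Tnnt1 had smaller ratios of -2.18 and -2.45, slow Tnni1 had -2.95, and cardiac Tnnt2 and Tnni3 had -1.997 and -0.31. All fast subunits therefore fell further than their slow or cardiac counterparts. Cardiac actin Actc1, which is expressed early in skeletal muscle, had 1793 and 205 FPKM (log2 ratio -3.13), further than Acta1 at -1.65.

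**Figure D2:**
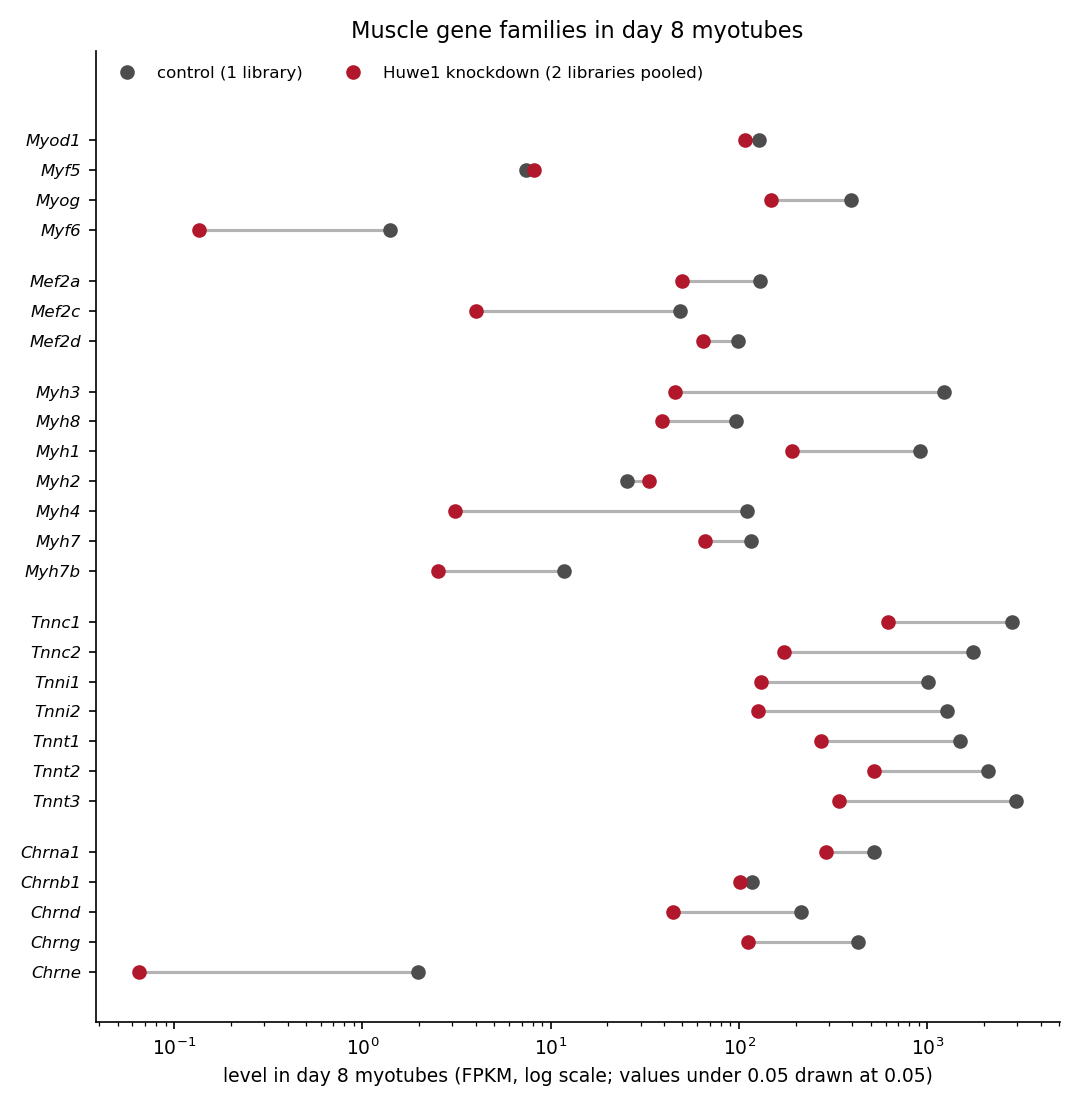
Level of each expressed member of 5 muscle gene families in control (grey) and Huwe1 knockdown (red) day 8 myotubes, in FPKM on a log axis, with a line joining both values of a gene. Members fell to unequal degrees: Myh3 and Myh4 by 26.8- and 35.4-fold and Mef2c by 12.1-fold, while Myod1, Myf5, Myh2 and Chrnb1 stayed within 2-fold.

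A few sarcomere genes did not follow. Cryab, a small heat shock protein that protects the Z-disc, had 1001 FPKM in control against 1778 FPKM in knockdown, and filamin C, Flnc, had 218 and 362 FPKM. Klhl40, a stabilizer of thin filament proteins, had 55.3 and 66.2 FPKM, Lmod2, a thin filament nucleator, had 197 and 154 FPKM, and Fhl1 had 110 and 118 FPKM. At the other end of the Z-disc list, Tcap, which caps titin, had 27.9 and 2.00 FPKM, Myot had 14.3 and 0.987 FPKM, and Myoz2 had 68.2 and 8.56 FPKM. The most abundant Z-disc gene in the control was Des, which had a log2 ratio of -1.32.

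The calcium release machinery was lower throughout. All 26 expressed genes for excitation-contraction coupling were lower in the knockdown, 18 of them at least 2-fold, with a median log2 ratio of -1.65. Between the day 6 controls the median was -1.18, and 20 of 28 genes were at least 2-fold lower in the second. The share of genes past 2-fold was thus similar in both comparisons. Genes that store and pump calcium in fast fibers were among those that fell furthest. Casq1, the calcium buffer of fast sarcoplasmic reticulum, had 174 FPKM in control against 7.83 FPKM in knockdown (22.2-fold lower). Atp2a1, the fast calcium pump, had 318 and 37.1 FPKM, and Pvalb, a calcium buffer of fast fibers, had 26.4 and 1.70 FPKM. The release channel Ryr1 and its voltage sensor Cacna1s fell less, from 84.1 to 28.6 FPKM and from 62.2 to 25.6 FPKM. Atp2a2, the pump that slow muscle and other tissues use, was at 435 and 303 FPKM. Among channels of the surface membrane, the sodium channel Scn4a had 8.58 and 0.45 FPKM.

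At the postsynaptic membrane the subunits of the acetylcholine receptor separated. Chrng and Chrnd, the fetal gamma and the delta subunit, had 426 and 213 FPKM in the control, against 112 and 44.4 FPKM in the knockdown. Chrna1, which binds the transmitter, had 520 and 289 FPKM, and Chrnb1 had 118 and 101 FPKM, so these both stayed within 2-fold. The adult subunit Chrne was low in the control at 1.97 FPKM and had 0.0654 FPKM in the knockdown. Rapsn, the scaffold that clusters the receptor, was 2-fold higher, at 60.7 and 123 FPKM. Over the list, 7 of 16 genes fell 2-fold or more and 1 rose as far, with a median of -0.88 against -0.74 between the day 6 controls. The dystrophin-glycoprotein complex, which anchors the fiber to the matrix, had a median of -0.75 against -0.77 between those controls, with 6 of 20 genes at least 2-fold lower. Among its decreases was that of Itgb1bp2, from 87.2 to 24.4 FPKM, while its most abundant member, the laminin receptor Itga7, had 384 and 356 FPKM. For these last lists the difference at day 8 was about as large as that between the control columns.

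Fusion genes showed no common direction, with 5 of 17 at least 2-fold lower and 1 higher. The median was -0.40, against -0.23 between the day 6 controls. The fusogens were lower. Myomaker, listed as Tmem8c, had 1124 FPKM in control against 347 FPKM in knockdown, and myomerger, listed as Gm7325, had 47.2 and 22.6 FPKM. Dysferlin, Dysf, and Trim72, which reseal torn membrane, had 41.1 and 121 FPKM in the control, against 15.03 and 42.0 FPKM in the knockdown. The interleukin 4 receptor gene Il4ra, which has a part in myoblast recruitment, had 15.2 and 48.1 FPKM.

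Genes of energy metabolism were mostly lower. Of 29 genes of the phosphagen, glycogen and glycolysis list, 13 were at least 2-fold lower and 1 higher, with a median of -0.88. Between the day 6 controls the median was -0.81, and 13 of 31 genes were at least 2-fold lower in the second. Pgam2 and Eno3, the muscle forms of phosphoglycerate mutase and enolase, had 155 and 817 FPKM in the control, against 20.2 and 163 FPKM in the knockdown. Pfkm and Pygm, muscle phosphofructokinase and glycogen phosphorylase, each had a log2 ratio of -2.28. Of forms that many tissues share, Gapdh had a log2 ratio of -0.37, Pkm, which had the highest control level at 1242 FPKM, -0.35, and Eno1 -0.88. The split was not a clean one, since the brain creatine kinase Ckb fell along with Ckm, from 118 to 14.2 FPKM, while the muscle forms Ckmt2 and Phka1 had 3.32 and 6.47 FPKM in the control, against 4.32 and 6.54 FPKM in the knockdown. Subunits of the respiratory chain and ATP synthase shifted little and mostly in 1 direction. The median was -0.48, against -0.29 between the day 6 controls, with 54 of 58 lower and 3 at least 2-fold lower. The 3 were the muscle isoforms Cox6a2 (84.7 and 34.6 FPKM), Cox7a1 (8.74 and 4.13 FPKM) and Cox8b (20.7 and 9.94 FPKM).

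To see whether the genes lost at day 8 are those that differentiation had turned on, genes were sorted by the control columns of the day 0 and day 6 tables alone, which take no part in the day 8 contrast. Of 745 genes that were at least 8-fold higher in the day 6 than in the day 0 control and expressed at day 8, 364 were at least 2-fold lower in the day 8 knockdown, or 48.9%, and 83 were at least 2-fold higher, or 11.1%. Their median log2 ratio was -0.95. Among 6399 genes within 2-fold between those controls, 3.27% were at least 2-fold lower and 4.05% higher, with a median of 0.02. The share depended steeply on the size of the induction, since 17.5% of genes induced 4- to 8-fold and 6.15% of genes induced 2- to 4-fold were lower. Looked at the other way, 512 of the 1079 lower genes with a level in those controls, or 47.5%, had risen at least 2-fold during control differentiation, against 21.2% of all expressed genes. The higher genes were also above that share, with 234 of 664, or 35.2%, and 33.2% of the lower genes had fallen at least 2-fold, against 21.6% of all. With 1 FPKM or more required in both day 8 columns, the share of lower genes among those induced 8-fold was 41.6%. The difference of the induced class between the 2 day 6 controls is not given, and the first of those 2 was used to choose it. Several muscle lists were lower in the second, as given above.

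The sorting brought out a second group. Genes that control differentiation had turned off were lower as well: of 523 genes at least 8-fold lower at day 6 than at day 0 and still expressed at day 8, 244, or 46.7%, were at least 2-fold lower in the knockdown, with a median of -0.88. Genes of the S, G2 and M phase lists made up 89 of the 523. Without them, 168 of 434 were lower, or 38.7%, with a median of -0.59, so the genes lower in this class were not those of these lists only. A gene of this class can pass the minimum of 1 FPKM through the day 8 control alone, which favours decreases, and 523 of 731 genes passed. With 1 FPKM or more required in both day 8 columns, 135 of 366 were lower, or 36.9%, and 17 were higher, with a median of -0.53. Not all induced genes were lost. Among those induced at least 8-fold and higher in the knockdown, Dio2, the deiodinase that activates thyroid hormone, had 54.0 FPKM in control against 201 FPKM in knockdown at day 8, Gas6, a ligand of TAM receptors, had 39.6 and 229 FPKM, and Gpx3, a secreted glutathione peroxidase, had 61.8 and 175 FPKM. These 3 were chosen after their values were seen.

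**Figure D3:**
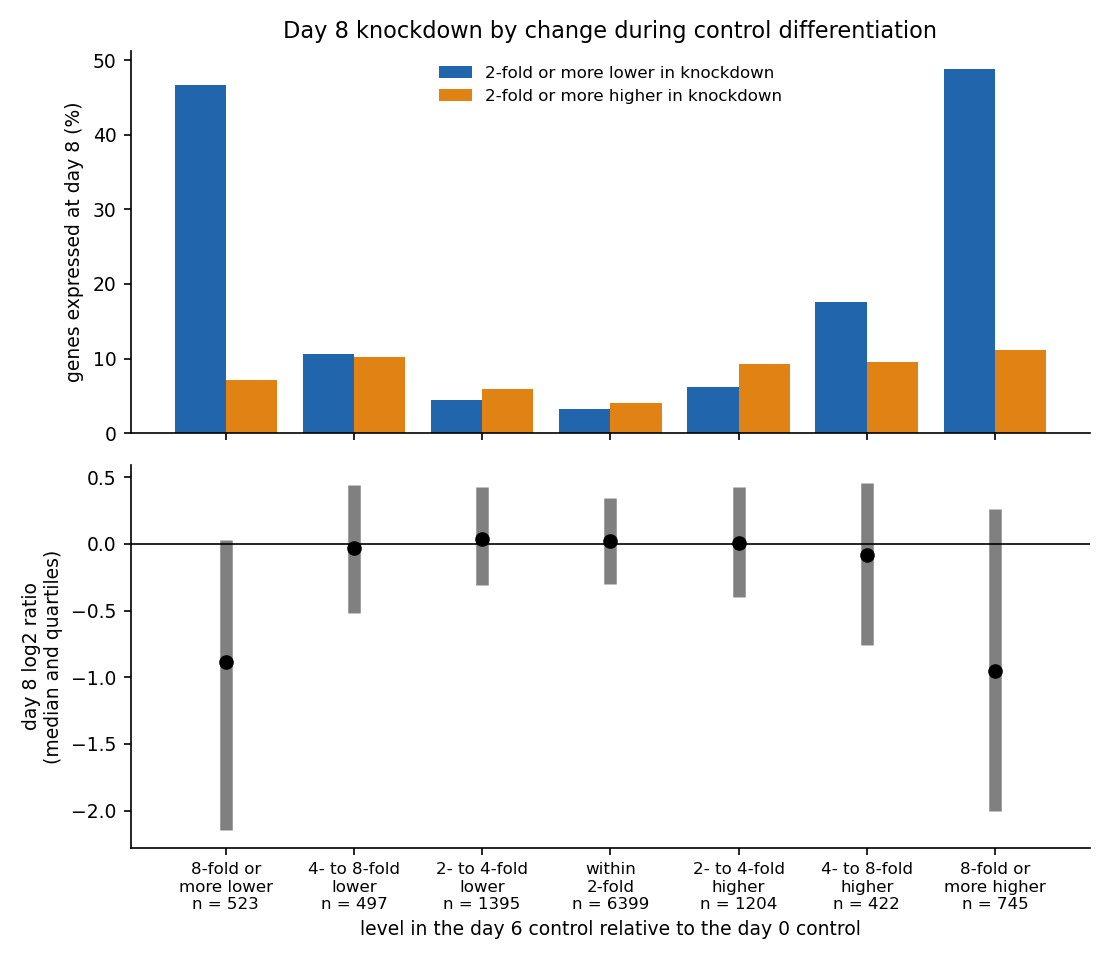
Genes grouped by the ratio of the day 6 to the day 0 control, with the percentage at least 2-fold lower (blue) or higher (orange) in the day 8 knockdown above, and the median (point) and quartiles (bar) of the day 8 log2 ratio below. The percentage of lower genes was 48.9% for genes induced at least 8-fold, 46.7% for genes reduced at least 8-fold and 3.27% in the middle class; with 1 FPKM required in both day 8 columns the first 2 were 41.6% and 36.9%.

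The cell cycle genes moved in 1 direction. All 61 G2 and M phase genes were lower in the knockdown, 58 at least 2-fold, with a median log2 ratio of -2.93 and ratios from -4.07 to -0.76. The proliferation antigen Mki67 had 46.7 FPKM in control against 2.82 FPKM in knockdown, the topoisomerase Top2a had 59.1 and 5.97 FPKM, and the ubiquitin-conjugating enzyme of mitotic exit, Ube2c, had 52.3 and 4.67 FPKM. The mitotic cyclins Ccnb1 and Ccnb2 had 12.9 and 14.7 FPKM in the control and were under 1 FPKM in the knockdown. The S phase list was lower by less, with 20 of 43 genes at least 2-fold lower and none higher. Its median was -0.90, against 0.55 between the day 6 controls. Pcna, its most abundant member, had 95.8 and 37.5 FPKM, and the hemimethylated DNA reader Uhrf1 had 9.09 and 0.986 FPKM. In the day 6 tables, which were normalized separately, the median level over the G2 and M genes was 0.660 FPKM in the control against 1.97 FPKM in the knockdown, against 13.8 and 1.75 FPKM at day 8. Of these 4 columns the day 8 control was thus highest in dividing-cell transcripts, the day 6 control lowest, and the 2 knockdown columns lay close together. In the day 0 control, which is of dividing myoblasts, the median was 54.9 FPKM. Between the 2 day 6 controls the list median was 1.24, with the sarcomere lists moving the opposite way.

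Of 14 expressed CDK inhibitors, Rb family genes and D cyclins with their kinases, 6 were at least 2-fold lower and none higher, with a median of -0.64. Cdkn1a, which encodes p21 and is induced when myoblasts leave the cycle, had 522 FPKM in control against 200 FPKM in knockdown, and Cdkn1c, encoding p57, had 67.7 and 7.26 FPKM, whereas Cdkn1b, encoding p27, had 16.5 and 21.9 FPKM. Of the D cyclins, Ccnd3, the one that myotubes keep, had 168 and 47.7 FPKM, while Ccnd1 had 4.94 and 4.47 FPKM and Ccnd2 had 1.39 and 1.23 FPKM. The retinoblastoma gene Rb1 had 40.2 and 23.2 FPKM and its relative Rbl2 had 37.3 and 48.0 FPKM.

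Among the protein-coding genes that rose, the metallothioneins reached the highest levels of the 15 largest increases. Both expressed metallothioneins, small cysteine-rich proteins that bind zinc and copper, rose together. Mt2, at chr8:94172618-94173567, had 96.2 FPKM in control against 1379 FPKM in knockdown, and its neighbour Mt1 had 70.5 and 786 FPKM. In the day 6 controls Mt2 was at 49.8 and 116 FPKM and Mt1 at 117 and 179 FPKM, far below the day 8 knockdown. The zinc exporter Slc30a1, regulated with them by the zinc sensor Mtf1, had 1.21 and 3.50 FPKM, the zinc importer Slc39a10 had 12.1 and 3.39 FPKM, and Mtf1 itself had 8.22 and 9.46 FPKM. Over the 12 expressed metallothionein and zinc transporter genes the median was 0.20, against 0.18 between the day 6 controls, so the rise was that of single members and not of the list.

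Other genes among the 15 largest increases follow. The secreted chaperone Clu had 1.14 and 20.1 FPKM, thrombomodulin, Thbd, had 1.24 and 20.2 FPKM, and the chemokine Cxcl12 had 2.03 and 29.1 FPKM. Lubricin, Prg4, had 2.80 and 37.6 FPKM and the Wnt modulator Sfrp2 had 5.56 and 68.6 FPKM. Inhbb, a subunit of activin B, had 8.90 and 80.8 FPKM and Lbp, which binds lipopolysaccharide, had 1.68 and 14.8 FPKM. Scara5, a ferritin receptor, had 2.96 and 26.9 FPKM, and the matrix protein Fbln7 had 2.51 and 26.0 FPKM. Clec2d, Mgst1 and the small nucleolar RNA Snord34 also belong to this set, beside Mt1 and Mt2. For several of them the day 6 controls already spanned much of this range. Sfrp2 was at 6.55 and 61.3 FPKM in those 2 columns, Fbln7 at 1.96 and 25.02 FPKM, Scara5 at 3.63 and 47.6 FPKM, Mgst1 at 0.70 and 27.7 FPKM, and Snord34 at 4925 and 0 FPKM. For Fbln7, Scara5, Mgst1 and Snord34 the ratio between those 2 controls was larger than that between knockdown and control at day 8, whereas for Mt2 and Mt1 it was smaller. The largest decreases combined sarcomere genes (Myh4, Myh3, Tcap), calcium proteins (Casq1, Pvalb) and Mki67 with Pgm5 and genes of other roles. Alox5, the first enzyme of leukotriene synthesis, had 75.2 and 2.69 FPKM, and the secreted hormone Fgf21 had 135 and 8.06 FPKM. Tceal7 had 50.2 and 1.72 FPKM and Padi2, a peptidylarginine deiminase, had 43.1 and 3.24 FPKM.

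**Figure D4:**
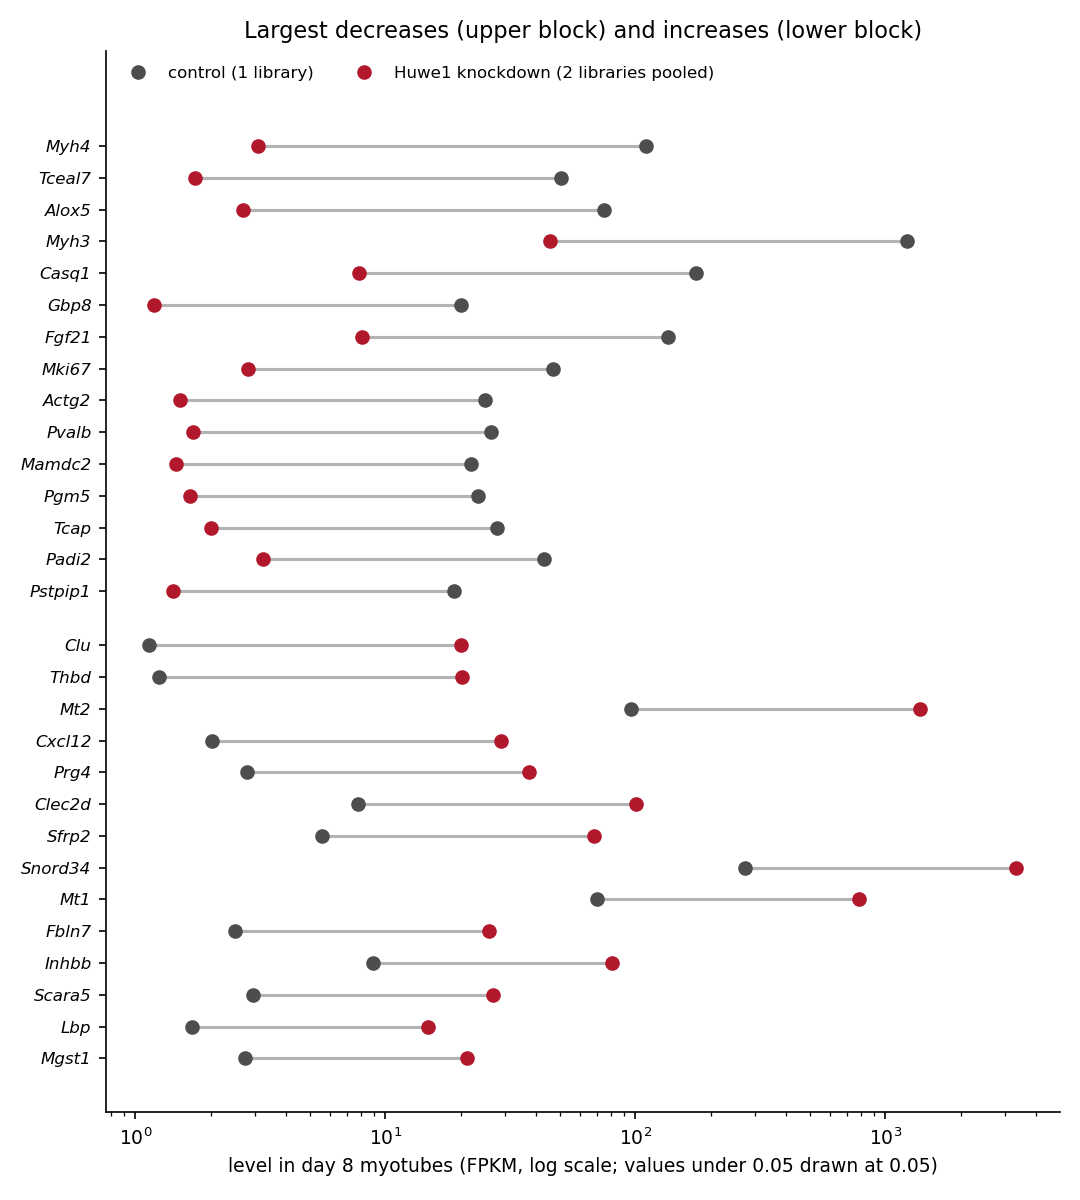
Level in control (grey) and Huwe1 knockdown (red) day 8 myotubes, in FPKM on a log axis, of the 15 genes with the largest decrease and 14 of the 15 with the largest increase of genes that reached 10 FPKM in 1 column and stayed above 1 FPKM in the other. Myh3 has the highest control level of the decreases at 1218 FPKM, and Snord34 and Mt2 have the highest knockdown levels of the increases.

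Genes that crossed from at least 10 FPKM to under 1 FPKM numbered 26, and 54 crossed the other way. Genes of short RNAs of the Snord, Snora, Scarna, Mir and Rnu classes made up 13 of the 26 and 49 of the 54. The 13 other genes that crossed downward were led by Adprhl1 (26.7 and 0.614 FPKM), Trp63 (25.4 and 0.752 FPKM) and Galnt6 (17.2 and 0.515 FPKM). The 5 other genes that crossed upward were Inmt (0.743 and 24.7 FPKM), Kng2 (0.288 and 15.4 FPKM), Ccl8 (listed at 0 in the control, 13.2 FPKM in the knockdown), Cxcl1 (0.544 and 11.0 FPKM) and Gm8300 (0.122 and 10.3 FPKM). Of these, Inmt and Kng2 were at 22.8 and 14.3 FPKM in the second of the day 6 controls. Across all 117 expressed small RNA genes, 72 were at least 2-fold higher and 17 at least 2-fold lower. The nuclear long RNAs Malat1 and Neat1 were also higher, at 564 and 2194 FPKM and at 143 and 360 FPKM. In the 2 day 6 controls Malat1 was at 1102 and 314 FPKM and Neat1 at 148 and 67.2 FPKM.

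Stress and defence programs differed in how many genes moved. Of 39 interferon-stimulated genes only 22 were expressed, and Ifit1, Irf7, Mx1 and Rsad2 were among those under 1 FPKM in both columns. Of the 22, 20 were higher and 10 at least 2-fold higher, with a median of 0.90 against 0.64 between the day 6 controls. A gene could pass the minimum through the knockdown column alone, which favours increases. The summed level of all 39 was 228 FPKM in control against 258 FPKM in knockdown. Levels of the 22 expressed genes remained low, with a median of 8.34 FPKM in the knockdown. Dtx3l and Irf9, a ubiquitin ligase and the DNA-binding subunit of the interferon response complex, had 5.56 and 3.71 FPKM in the control, against 16.8 and 12.3 FPKM in the knockdown. The exception with the highest level, Ifitm3, had 129 and 73.8 FPKM. The p53 list had a median of 0.48 against -0.04 between the day 6 controls, with 5 of 25 genes at least 2-fold higher and 2 lower. Fas, the death receptor, had 15.3 and 61.0 FPKM, Phlda3 had 79.2 and 223 FPKM and Trp53inp1 had 5.36 and 22.1 FPKM, while Cdkn1a and Pmaip1 fell. Trp53 mRNA was at 40.2 and 37.3 FPKM.

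For the antioxidant genes of the NRF2 pathway, 22 of 25 were higher and 4 at least 2-fold higher, with a median of 0.31 against 0.54 between the day 6 controls. Heme oxygenase, Hmox1, had 25.4 and 93.4 FPKM, and sulfiredoxin, Srxn1, had 4.53 and 22.3 FPKM. In the heat shock list 4 of 21 genes were at least 2-fold higher, 4 lower and 13 within 2-fold. The median was 0.32, against 0.16 between the day 6 controls. The small heat shock genes Hspb8 and Hspb1 were among those within 2-fold, with log2 ratios of 0.33 and 0.18. Hsph1 had 85.1 and 212 FPKM and Hspe1 had 119 and 252 FPKM, while Hspb7, a small heat shock protein of striated muscle, had 70.9 and 6.37 FPKM and Unc45b, the myosin chaperone, had 46.4 and 11.9 FPKM. The unfolded protein response had a median of 0.07. Its apoptotic factor Ddit3 had 47.6 and 151 FPKM, and the serine synthesis enzymes Psat1 and Phgdh had 71.3 and 57.9 FPKM in the control, against 14.5 and 16.3 FPKM in the knockdown.

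The lists for protein breakdown did not move in 1 common direction. Among muscle ubiquitin ligases and atrophy genes, 6 of 25 were at least 2-fold higher and 4 lower, with a median of 0.05. The atrophy ligases went in opposite directions, Fbxo32 from 11.5 to 30.9 FPKM and Trim63 from 56.9 to 23.7 FPKM. The autophagy adaptor Sqstm1 had 426 and 896 FPKM and Gabarapl1 had 25.8 and 55.8 FPKM. Lysosomal genes were higher in 26 of 31 cases, 5 of them at least 2-fold, with a median of 0.47 against 0.43 between the day 6 controls. Cathepsin B, Ctsb, had 95.5 and 229 FPKM, and the lysosomal calcium channel Mcoln1 had 24.4 and 58.4 FPKM. The constitutive proteasome was lower in 31 of 32 subunits with a median of -0.50, against -0.30 between the day 6 controls, and none passed 2-fold.

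Matrix genes moved both ways. The collagen and matrix list had a median of -0.23, with 6 of 36 genes at least 2-fold lower and 7 higher, against a median of 1.61 between the day 6 controls. The small proteoglycan Fmod had 16.2 and 2.36 FPKM, Col18a1 had 84.5 and 11.6 FPKM and Col6a3 had 39.8 and 6.33 FPKM. Bgn and Sparc, the most abundant matrix genes of the control, had 1714 and 1618 FPKM in the control, against 1726 and 930 FPKM in the knockdown. Of the proteases, Mmp11 had 8.76 and 53.2 FPKM and Mmp2 had 131 and 322 FPKM. Smooth muscle and SRF target genes were lower in 7 of 20 cases and higher in none by 2-fold. Their median was -0.65, against 0.78 between the day 6 controls. Examples were Actg2 (24.95 and 1.51 FPKM), Tagln (100.3 and 24.3 FPKM) and Myl9 (43.6 and 12.9 FPKM), while Acta2, the most abundant, had 1147 and 1010 FPKM.

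Chemokine and cytokine genes were at least 2-fold higher in 9 of 19 cases and lower in 2, with a median of 0.30 against 1.02 between the day 6 controls. Apart from Cxcl12, Ccl8 and Cxcl1, named above, the macrophage growth factor Csf1 had 20.4 and 55.6 FPKM, and the cytokine Lif fell from 3.02 to 0.582 FPKM. In the IGF list, which had a median of 0.44, Igfbp2 had 19.9 and 2.87 FPKM, Igfbp4 had 27.8 and 73.0 FPKM, and Igfbp5 had 651 and 1133 FPKM. Igf2, a growth factor that myotubes secrete, was at 452 and 388 FPKM, although the imprinted RNA H19 beside it had 3334 and 1022 FPKM. Immediate early genes had a median of -0.14. In the AP-1 family, Jun had 68.8 and 98.2 FPKM, Junb had 61.5 and 97.4 FPKM, Jund had 36.3 and 25.3 FPKM, Fosl2 had 19.4 and 27.7 FPKM and Fos had 3.57 and 1.99 FPKM, and Fosb and Fosl1 were under 1 FPKM. Egr3 and Egr2 had 11.7 and 7.21 FPKM in the control, against 0.798 and 1.45 FPKM in the knockdown. The cell death list had a median of 0.20, and its largest increase was that of Casp12 (11.1 and 35.4 FPKM).

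**Figure D5:**
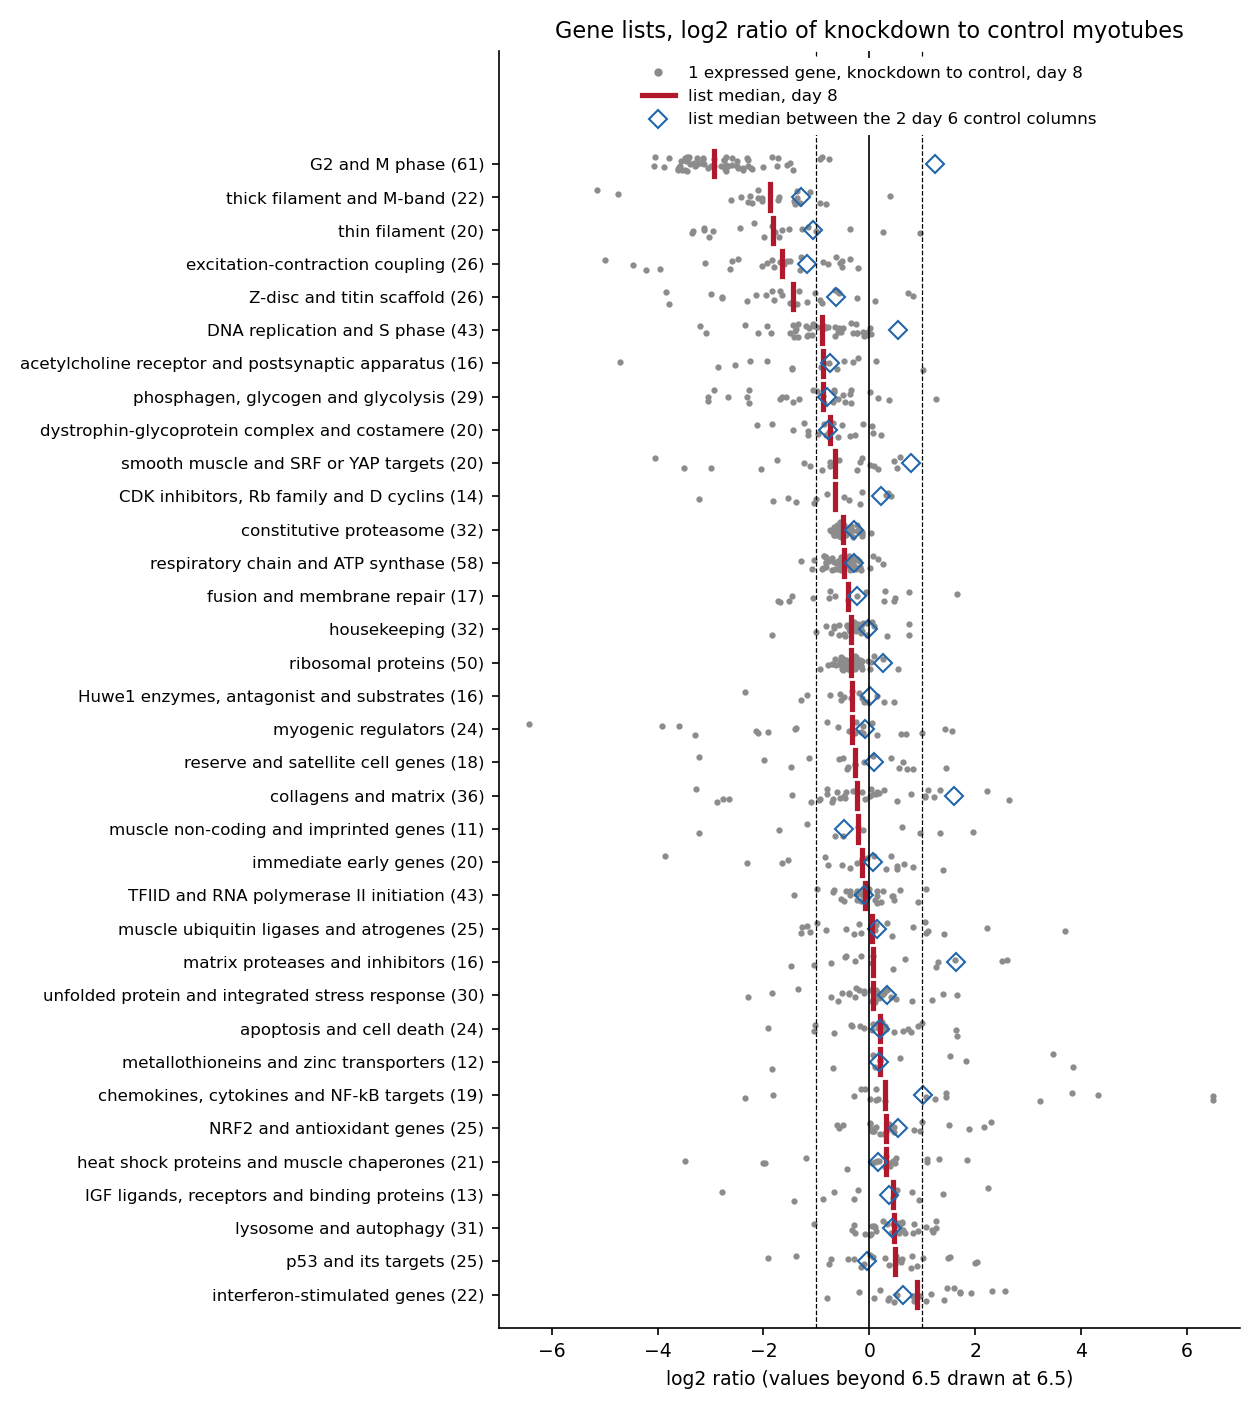
Log2 ratio of knockdown to control at day 8 for each expressed gene (grey points) of 35 gene lists, with the list median (red bar) and the median of the same list between the 2 day 6 control columns (open blue diamond); the number of expressed genes is in brackets and dashed lines mark 2-fold. The G2 and M phase list lies lowest at -2.93 while its diamond is at 1.24, and the sarcomere lists lie below diamonds that are themselves negative.

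The general transcription machinery, to which TBP belongs, was nearly level. Over 43 expressed genes of TFIID, the other initiation factors and RNA polymerase II, the median log2 ratio was -0.07 and only Taf7 (4.58 and 9.59 FPKM) and Taf9b (1.16 and 0.429 FPKM) passed 2-fold. Tbp itself, at chr17:15499888-15517427, had 15.9 FPKM in control against 21.95 FPKM in knockdown (log2 ratio 0.46), with 10.8 and 27.8 FPKM in the 2 day 6 controls. Polr2a, the largest polymerase subunit and the most abundant of the list, had 242 and 221 FPKM. Usp10, the deubiquitinase paired with Huwe1 in the series, had 14.5 and 13.1 FPKM. Of 16 expressed genes on the list of Huwe1, its antagonist, partner enzymes and substrates, 3 were at least 2-fold lower and none higher. The substrates Mcl1 and Myc had 46.1 and 18.4 FPKM in the control, against 55.9 and 17.9 FPKM in the knockdown, Cdc6 had 1.44 and 0.275 FPKM, and the E2 enzyme Ube2d1 had 147 and 64.8 FPKM. Ribosomal protein genes were lower in 45 of 50 cases with a median of -0.34, and housekeeping genes in 27 of 32 with one of -0.35. None of the 50 and 2 of the 32 were at least 2-fold lower. Those 2 were the transferrin receptor Tfrc (74.0 and 20.8 FPKM) and Reep5 (113 and 55.9 FPKM).

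Because TBP binds the TATA box, the promoters of the changed genes were read in the RefSeq table of GRCm38.p6, which gave windows from 250 bases before to 50 bases after the start for 8716 of the 11755 expressed genes, 11138 windows in all. The letters TATAAA on the gene's own strand at 40 to 20 bases before the start, where a TATA box works, were found in 25 of 1075 windows of genes at least 2-fold lower (2.33%), in 10 of 728 windows of higher genes (1.37%) and in 114 of all windows (1.02%). For genes changed at least 8-fold the order was the other way, with 7 of 160 windows of lower genes (4.38%) and 2 of 34 windows of higher genes (5.88%). In the thick filament list they were found in 3 of 21 windows. Anywhere in the window and on either strand, TATAAA was found in 10.2% of windows of lower genes, 7.69% of those of higher genes and 7.08% of all, and in 13.8% and 17.6% of those of genes at least 8-fold lower and higher. CAGCTG, a palindrome and a form of the E-box that MyoD family proteins bind, was found in 22.9%, 18.7% and 15.6%, and in 9 of 21 windows of the thick filament list and 10 of 19 of the thin filament list. It is 1 case of the general E-box CANNTG, which was found in 71.2%, 68.0% and 63.0%. For the G2 and M phase genes, TATAAA near the start was found in 0 of 50 windows and CAGCTG in 4 of 50. These matches describe letters and not binding.

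The 100 bases before the start are shown for 4 of the lower genes that carry TATAAA in this place, and for Myog. The shared position can thus be seen. Myog fell without an exact match, but its stretch holds the similar letters tttaaa in about the same place, and variants of TATAAA were not sought. TATAAA and CAGCTG are in capitals, and all stretches are written 5′ to 3′ in the direction of the gene.
Myh4, chr11:67237712-67237811, plus strand: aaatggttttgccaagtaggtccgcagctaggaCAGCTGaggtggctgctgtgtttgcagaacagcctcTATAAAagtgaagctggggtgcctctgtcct
Myh3, chr11:67078200-67078299, plus strand: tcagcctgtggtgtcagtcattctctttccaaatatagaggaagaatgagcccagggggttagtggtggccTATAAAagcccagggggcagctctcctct
Tnnt1, chr7:4515976-4516075, minus strand: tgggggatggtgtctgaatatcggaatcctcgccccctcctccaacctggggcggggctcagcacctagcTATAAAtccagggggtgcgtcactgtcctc
Fgf21, chr7:45615491-45615590, minus strand: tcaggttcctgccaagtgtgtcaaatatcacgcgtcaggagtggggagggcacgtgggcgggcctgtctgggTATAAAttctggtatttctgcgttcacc
Myog, chr1:134289904-134290003, plus strand: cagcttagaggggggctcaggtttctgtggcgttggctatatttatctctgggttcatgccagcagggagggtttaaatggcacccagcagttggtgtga
The motif begins at -31 in Myh4, -29 in Myh3, -30 in Tnnt1 and -28 in Fgf21, counted back from the first transcribed base. Where a gene reached 10 FPKM in 1 column, 17 promoters with TATAAA in this place belonged to genes at least 2-fold lower and 5 to genes at least 2-fold higher. Unlike the window counts above, this count does not cover every chromosome. It also has no total, since promoters without the motif were not counted at this level, so 17 and 5 are not rates. Over all levels the lower class was the larger, with 1075 windows against 728 of the higher class. The 17 include Myh1 and Trim63, named above, and S100a4 (1122 and 284 FPKM), a calcium-binding protein, and the 5 include Dio2 and Ccl8.

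The knockdown made before differentiation and read at day 6 had another control and, by the labels, other hairpins. Set beside it, 8 of the 9 muscle lists had negative medians on both days, each further from 0 at day 6. The fusion and membrane repair list was the exception, with a median of 0.35 at day 6 against -0.40 at day 8. The day 6 medians were -3.12 for the thick filament, -3.13 for the thin filament and -2.71 for the Z-disc list, against -1.88, -1.82 and -1.44 at day 8. The day 6 ratios are relative to the first of the 2 day 6 controls. In the second, the medians of the 9 muscle lists relative to the first ran from -1.30 for the thick filament to -0.07 for the myogenic regulators. For excitation-contraction coupling that median was -1.18, beside -2.34 at day 6 and -1.65 at day 8. Which day lies further from 0 may thus depend on the control used, which was not tested. Myog had 619 and 27.1 FPKM at day 6, a log2 ratio of -4.51 against -1.41 at day 8. Some genes fell further at day 8, among them Myh3 with -2.84 at day 6 against -4.74, and Myh4 with -3.59 against -5.15. Mt2 and Mt1, the most abundant of the day 8 increases among protein-coding genes of that set, had log2 ratios of -1.45 and -1.14 at day 6. None of these differences between days was tested, since each rests on 1 value per column.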

How the data were processed

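RNA was analysed from 1 control and 2 Huwe1 knockdown libraries of day 8 C2C12 myotubes, grouped by the sample labels. According to the methods and the labels, the authors selected poly(A) RNA, made ScriptSeq libraries, ran them on a HiSeq 2000 and used Tophat (the submitters' processing notes name Bowtie2) and Cuffdiff with build mm10; versions are not given in the sources used here. The deposited values are FPKM, 1 value per gene and condition, with both knockdown libraries pooled. The tables also hold the authors' log2 fold changes, test scores, p-values and q-values, which were not used. Of the value columns in 4 tables, 1 (USP10 overexpression) was not used.

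Log2 ratios of (knockdown + 0.01) to (control + 0.01) were computed where either column reached 1 FPKM. On this scale genes nearly absent from 1 column have very large ratios, and the full range was -14.9 to 16.5. Cuffdiff loci were converted to start at base 1. The control columns of the day 6 and USP10 tables were compared after centring on their median ratio. No test was possible, so counts and medians of 42 hand-written lists (1041 genes, 903 expressed) are given beside those of all genes. The members and lists were chosen with earlier results of these data known. The genes named are Huwe1, genes the study names, the 15 largest changes each way (at least 10 FPKM in 1 column and 1 in both, locus of at least 500 bases, completed estimate), in each list the highest and up to 5 most changed members, and complete families; others were added after their values were seen, to show members that did not change or to give the member a pathway is known for. Alternatives were other pseudocounts, filters, centring, locus lengths, Cuffdiff status, induction limits and motif positions. Some genes that met the rule are not reported here. The computation was tested on simulated data. Calculations used pandas 2.3.3 and numpy 2.4.6 under Python 3.11.15, and plots matplotlib 3.10.9.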

Additional observations from a re-analysis of the deposited data

Results flagged for a closer look

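In 5 of the 42 lists the median log2 ratio of knockdown to control had opposite signs at day 6 and day 8 and was at least 0.5 in size at both. For the G2 and M phase list it was 1.59 at day 6 and -2.93 at day 8, a difference of -4.52. For the DNA replication and S phase list it was 0.65 and -0.90, a difference of -1.55. For the smooth muscle and SRF or YAP target list it was 0.87 and -0.65, a difference of -1.53. For the osteoblast and chondrocyte markers it was 0.62 and -0.53, a difference of -1.15. For the neuronal and glial markers it was 5.90, over 3 expressed genes, and -2.20, over 2, a difference of -8.10. The difference was not tested in any of the 5 lists, since each column is a single value. The controls and the time of infection also differed between the days, as did the hairpins by the labels. The day 6 ratios are relative to the first of the 2 day 6 controls. In the second, relative to the first, the G2 and M, S phase and smooth muscle lists had medians of 1.24, 0.55 and 0.78. The osteoblast and chondrocyte markers had 0.49, and the neuronal and glial markers 4.13 over 1 expressed gene. The signs at day 6 may thus depend on the control used, which was not tested.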

How the results depend on the processing

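Counts of genes depended on the treatment of low values. Against 1180 lower and 928 higher genes, 1 FPKM in both columns gave 783 and 544, 5 FPKM in either column gave 771 and 502, and every listed gene with a value above 0 gave 3640 and 2408. A pseudocount of 1 gave 545 higher genes, and 902 lower. The share of genes induced 8-fold that were lower, 48.9%, was 41.6% with 1 FPKM in both columns, 40.7% with a pseudocount of 1, and 37.5% among genes induced at least 4-fold. The share of lower genes among those reduced 8-fold, 46.7%, was 36.9% with 1 FPKM in both columns, a setting chosen after seeing the data. The median of the G2 and M phase list was -2.29 with a pseudocount of 1. TATAAA was found in 2.33% of promoters of lower genes when sought only at 40 to 20 bases before the start, against 10.2% in the whole window. The median of the 2 expressed neuronal and glial markers changed sign to 0.11 when unexpressed members were included. The medians of the 9 muscle lists and the S phase list kept their sign and moved by less than 1.5-fold under each of these settings.

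Single replicates could not be left out, because the knockdown libraries are pooled and the control is 1 library. No paired analysis was possible because the columns carry no replicate values. Small RNA genes and near-identical myosin genes have uncertain FPKM.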
